A study of Homo sapiens with 9 samples.

Results

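HCC4006 cells that had been kept in gefitinib together with a TGF-beta receptor inhibitor were compared with the parental cells they came from. No array shows the inhibitor-treated cells before that inhibitor, so persistence or reversal of a resistant state was not measured. The comparison takes 6 of the 9 arrays of the study, chosen by their sample titles. HCC4006 is an established human lung adenocarcinoma line whose mutated receptor EGFR is the target of the kinase inhibitor gefitinib. The inhibitor-treated group (3 arrays) had rising gefitinib doses and SB431542 over 6 months. A resistant group (3 arrays), with the same gefitinib treatment and no SB431542, is given beside it. The parental group (3 arrays) is labelled with no compound. Whether either compound was present at harvest is not stated. All groups are derived from the same line, so every difference is within 1 cell line. No arm had SB431542 without gefitinib or the same months in culture without drug, so the effects of each compound, of selection and of time cannot be told apart. The labels do not say that replicates were separate cultures, so p-values reflect how far arrays spread, which may be technical.

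TGF-beta ligands bind a type II receptor that activates the type I receptor kinase TGFBR1, which phosphorylates SMAD2 and SMAD3. SB431542 blocks TGFBR1 and the related activin and nodal type I receptors, and leaves the BMP type I receptors, which signal through SMAD1 and SMAD5 to the ID genes, largely untouched. In carcinoma cells the pathway drives epithelial-to-mesenchymal transition, in which adhesion genes such as CDH1 go down and mesenchymal genes such as VIM go up, and this state is a known companion of resistance to EGFR inhibitors.

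Each array gives 1 intensity per gene, with a floor of 72.7, and 30672 genes were tested. Olfactory receptor rows, which should be silent here, had a 95th percentile of 90.3, used as the background level. A change of a gene that lay near it in either group is understated. Inhibitor replicate 2 stood apart. It correlated at 0.990 and 0.991 with the other arrays of its group, which correlated at 0.998 with each other, and 54 genes lay at least 2-fold away from the mean of those arrays (39 above and 15 below), against 3 genes in each of the others. Most counts and changes against parental cells are therefore given with all arrays and again without it. The epithelial label fitted in part: KRT7, KRT8, KRT18, KRT19, CDH1 and EPCAM were all more than 2-fold above background in inhibitor-treated cells, while the lung markers NKX2-1 and NAPSA stood at 155 ± 7.41 and 94.2 ± 5.29 (SD, n = 3), against 409 ± 10.4 and 1002 ± 57.0 in parental cells. Of 12 leukocyte markers, 7 lay within background in inhibitor-treated cells, among them PTPRC at 88.3 and CD3E at 85.0. The other 5 lay above it, 2 of them more than 2-fold. CD14, CSF1R and CD68 were more than 2-fold above background in at least 1 of the groups. The list summed to 2155.5 to 2608 per array in inhibitor-treated cells and 2426 to 2547 in parental cells.

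In inhibitor-treated cells 2186 genes were called higher than in parental cells (7.13%) and 2390 lower (7.79%), where a call is an adjusted p under 0.05 in limma. These 2 shares are the baseline for each list count of inhibitor-treated against parental cells with all arrays. At a change of at least 2-fold, 182 were higher (0.593%) and 240 lower (0.782%). Without inhibitor replicate 2, 2467 were higher (8.04%) and 2508 lower (8.18%), and at 2-fold 171 (0.558%) and 224 (0.73%). Of the 4576 calls, 4074 were called in the same direction without that array, 502 were not, and none changed sign. All 422 genes called at 2-fold or more were still called without it, 53 of them at less than 2-fold. The secretoglobin SCGB3A1 had the largest fall in both fits.

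**Figure D1:**
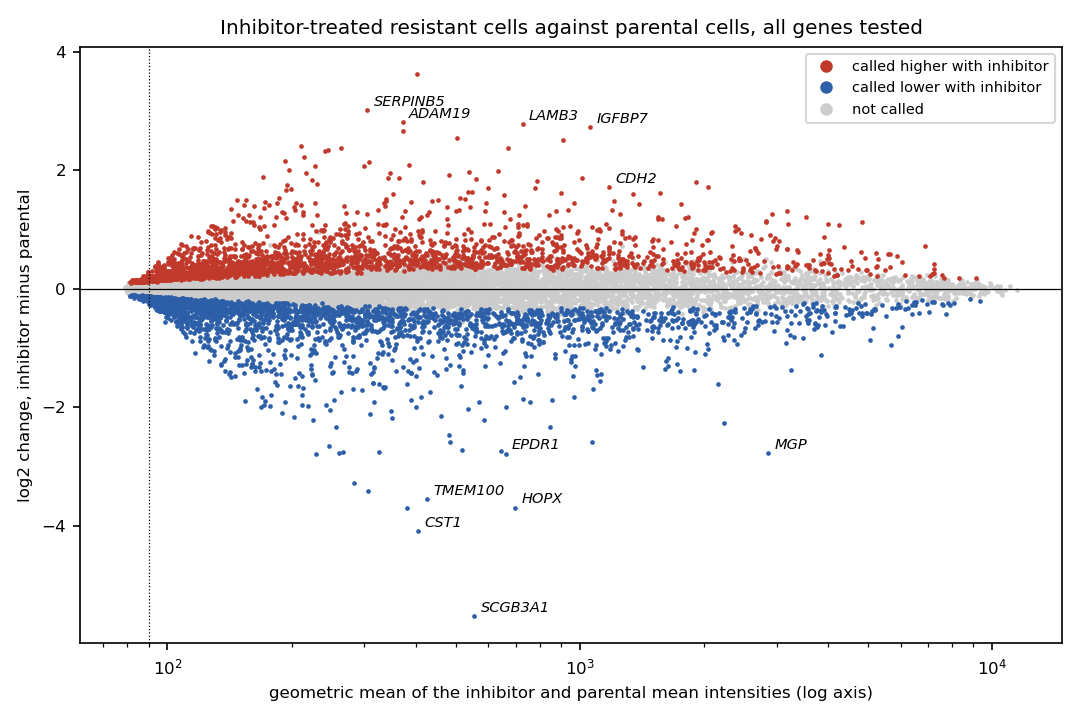
Log2 change of inhibitor-treated minus parental cells (vertical axis) against the geometric mean of the inhibitor and parental mean intensities (horizontal log axis), with each point a gene and the dotted line at the background level of 90.3. SERPINB5 at 3.02 is labelled near the top and SCGB3A1 at -5.53 at the bottom.

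**Figure D2:**
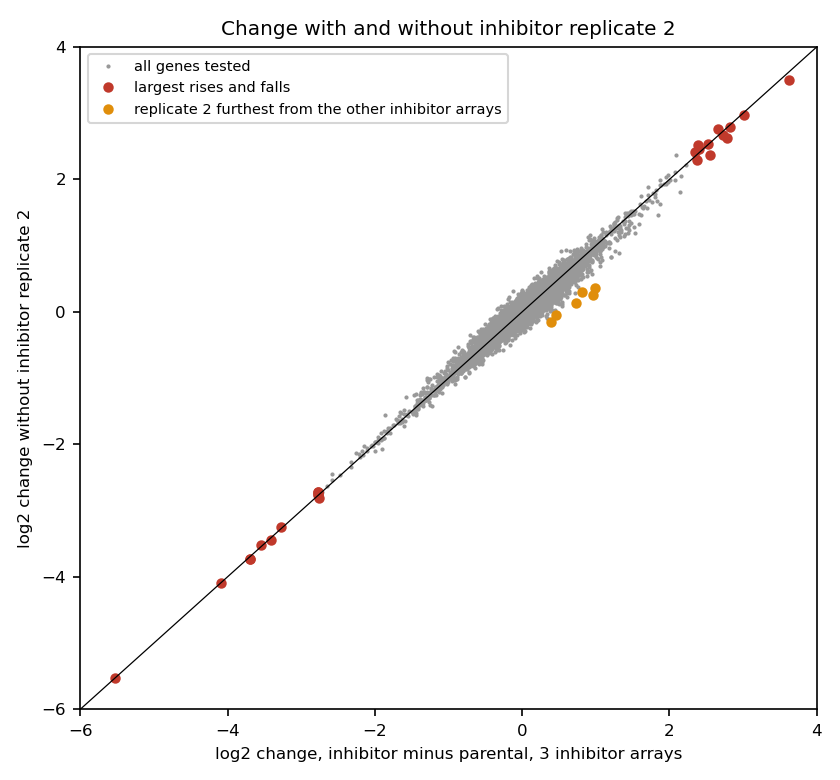
Log2 change of inhibitor-treated minus parental cells with all 3 inhibitor arrays (horizontal axis) and without inhibitor replicate 2 (vertical axis), with each point a gene and the line marking equal values. The largest rises and falls (red) lie near the line, and the genes in which replicate 2 deviated most (orange) lie below it, between 0.39 and 0.98 with the array and between -0.16 and 0.36 without it.

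Lung lineage and secretory genes were among the deepest losses. NKX2-1, FOXA1 and FOXA2 are transcription factors of the airway and alveolar epithelium, and the secretoglobins, surfactant proteins and NAPSA are products of differentiated lung cells. Of 20 such genes, 10 were lower and 2 higher than in parental cells (10 and 3 without inhibitor replicate 2), with a median log2 change of -0.14 beside 0.0045 over all genes. The 2 higher were FOXA2 and the mucin MUC5B, whose arrays all lay at background, and the count became 1 without inhibitor replicate 1 or 3 or without any single parental array. Against the same parental arrays, resistant cells had 0 members higher and 14 lower, where 10.2% of all genes were higher and 10.2% lower.

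SCGB3A1, a secreted airway protein, measured 83.7, 82.1 and 79.4 in inhibitor-treated cells, against 3707, 3840.0 and 3751 in parental cells. The groups were far apart, and every inhibitor array lay below background. The log2 change was -5.53 ± 0.093 (SE; -5.53 without inhibitor replicate 2; adjusted p = 7.6e-18), and resistant cells stood at 113 ± 2.74. The homeodomain protein gene HOPX measured 182, 205 and 196 in inhibitor-treated cells, against 2726, 2368 and 2432 in parental cells. No arrays overlapped, with a change of -3.69 ± 0.10 (-3.73 without replicate 2; adjusted p = 1.12e-14). Its resistant mean was 103 ± 4.71, so the inhibitor-treated level was 1.89-fold above the resistant level and 12.9-fold below the parental level. NAPSA, an aspartic protease that processes surfactant protein B, measured 88.4, 98.8 and 95.4 in inhibitor-treated cells, against 936, 1040.0 and 1029 in parental cells. The inhibitor arrays were near background, and the change was -3.41 ± 0.087 (-3.45 without replicate 2; adjusted p = 3.04e-15).

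NKX2-1, the lung lineage transcription factor, gave 148, 154 and 163 in inhibitor-treated cells, against 421, 405 and 402 in parental cells. These values did not overlap, and the change was -1.40 ± 0.085 (-1.40 without replicate 2; adjusted p = 4.6e-10), with 179.9 ± 11.9 in resistant cells. The phosphate transporter SLC34A2 changed by -2.76 (-2.81), FOXA1 by -1.38 (-1.32), the surfactant-associated gene SFTA2 by -1.11 (-1.06) and the disulfide isomerase AGR2 by -0.95 (-1.05), with the value without inhibitor replicate 2 in brackets, as in all such pairs. FOXA2 went the other way at 0.44 (0.44), with 691 ± 46.0 in inhibitor-treated, 192 ± 15.7 in resistant and 511 ± 40.6 in parental cells. TCN1, a cobalamin-binding secretory protein, measured 1378, 1342 and 1580.3 in inhibitor-treated cells, against 1190.3, 1138 and 1098 in parental cells. Every inhibitor array was above every parental array, but the change of 0.32 ± 0.11 missed the threshold (adjusted p = 0.0539). It passed without inhibitor replicate 2 (0.37, adjusted p = 0.0112), with array weights, with dim genes left out and with a variance prior without trend.

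Other large falls were found outside the lung list. The cystatin protease inhibitors CST1, CST4 and CST2 changed by -4.09 (-4.10), -3.69 (-3.74) and -1.29 (-1.32). Probe sequences were not used here, so signal shared between these close paralogs was not tested. TMEM100, a membrane protein known as a BMP target in lung endothelium, measured 129, 119.9 and 125 in inhibitor-treated cells, against 1566, 1444 and 1381 in parental cells. The inhibitor arrays were all lower, with a change of -3.55 ± 0.092 (-3.53 without replicate 2), and the resistant mean of 125 ± 2.98 was close to theirs. The neuronal adhesion gene NTM changed by -3.28 (-3.25), the retinal lipid transporter ABCA4 by -2.77 (-2.72), LRCH2 by -2.78 (-2.76) and the matrix Gla protein MGP, an inhibitor of calcification and of BMP, by -2.77 (-2.73). EPDR1, an ependymin-related secreted protein, differed from these in the resistant group. It measured 245, 242 and 271 in inhibitor-treated cells, against 1661, 1723 and 1815 in parental cells, a change of -2.78 ± 0.11 (-2.75 without replicate 2; adjusted p = 9.32e-13), whereas resistant cells stood at 1487 ± 54.6. The change relative to resistant cells was -2.56 ± 0.11 (-2.53 without replicate 2; adjusted p = 2.33e-12).

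Large rises were found in protease inhibitors, matrix and adhesion genes. The serpin SERPINE2, also called protease nexin, measured 2052, 2126 and 2348 in inhibitor-treated cells, against 396, 372 and 369 in parental cells. The arrays did not overlap, and the change was 2.52 ± 0.11 (2.53 without replicate 2), with 2558 ± 166 in resistant cells. IGFBP7, a secreted binding protein of insulin-like growth factors, gave 2626, 2936 and 2601 in inhibitor-treated cells, against 431, 414 and 388 in parental cells. It rose by 2.73 ± 0.11 (2.67 without replicate 2), with all inhibitor arrays higher, and stood at 2009.8 ± 159.9 in resistant cells. The metalloprotease ADAM19 measured 998, 1019 and 943 in inhibitor-treated cells, against 134, 152 and 135 in parental cells. The change of 2.82 ± 0.12 (2.79 without replicate 2) had no overlap between groups, and the resistant mean was 771 ± 125.

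Other large rises were those of the epithelial serpin SERPINB5 (3.02 [2.97]), the laminin chain LAMB3 (2.78 [2.63]), the interferon-inducible gene EPSTI1 (2.67 [2.76]), the crosslinking enzyme TGM2 (2.55 [2.37]), the actin crosslinker FLNC (2.38 [2.51]), MLLT11 (2.38 [2.29]), the kidney-type cadherin CDH6 (2.35 [2.41]) and the row LOC100134294 (2.40 [2.47]). FLNC and SERPINB5 differed in how the resistant group stood beside them. FLNC was at 603 ± 91.7 in inhibitor-treated cells, 3443 ± 356 in resistant cells and 115 ± 5.17 in parental cells. SERPINB5 was at 870.1 ± 89.8, 146 ± 10.1 and 107 ± 1.22 in the same order of groups.

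**Figure D3:**
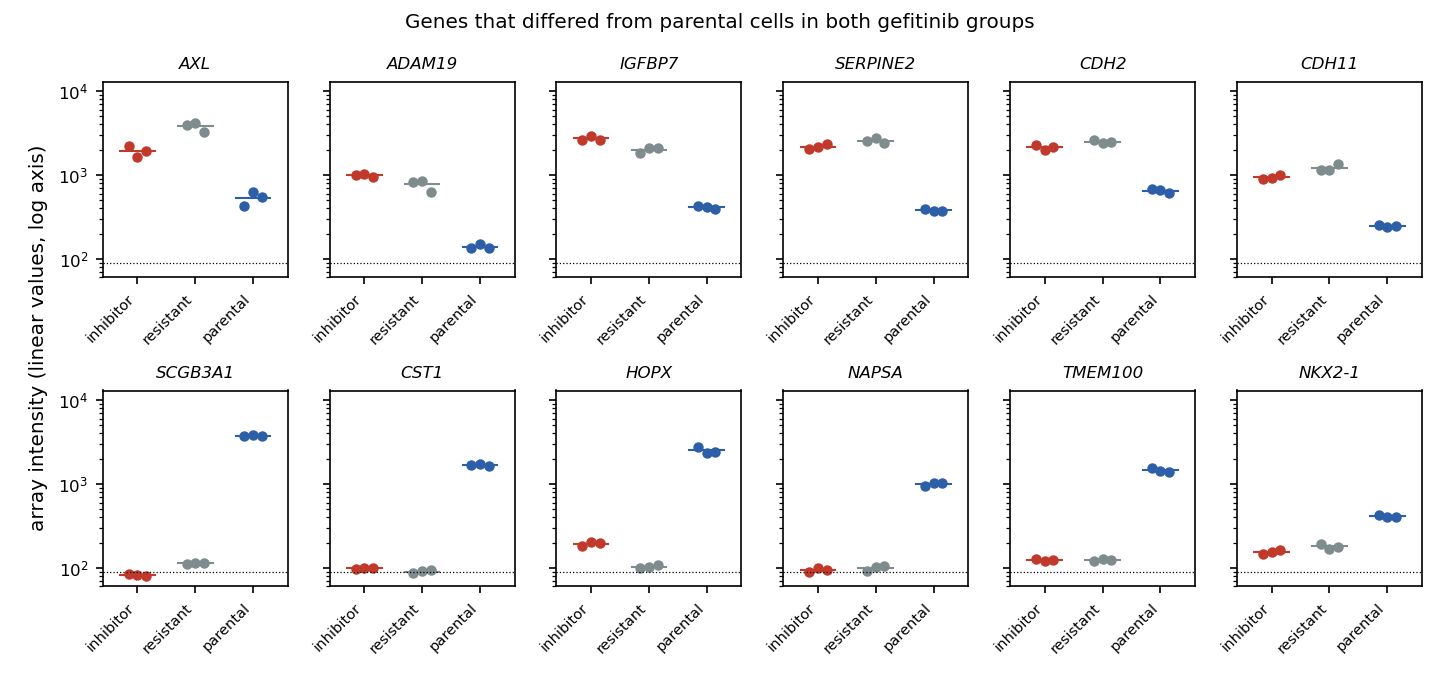
Array intensity on a log axis for 12 genes, with 1 point per array, a bar at the group mean and the dotted line at background, in inhibitor-treated, resistant and parental cells from left to right. The 6 genes of the upper row were higher than parental in both other groups and the 6 of the lower row were lower, with no overlap between inhibitor and parental arrays.

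Mesenchymal markers split into genes that lay above the parental level and genes whose values lay close to it. Of 32 markers, 12 were higher and 1 lower than in parental cells (10 and 1 without inhibitor replicate 2), with a median change of 0.041. In resistant cells, set against the same parental arrays, 25 members were higher and 1 lower, beside 10.2% of all genes each way. The N-cadherin gene CDH2 measured 2253, 2001 and 2148 in inhibitor-treated cells, against 688, 653 and 609.6 in parental cells. All inhibitor arrays were more than 2-fold above all parental arrays, and the change was 1.71 ± 0.10 (1.76 without replicate 2; adjusted p = 3.17e-10), with 2499 ± 102 in resistant cells. CDH11, a cadherin of mesenchymal cells, gave 889, 921 and 995 in inhibitor-treated cells, against 256, 239.7 and 244 in parental cells. Its change was 1.92 ± 0.11 (1.93 without replicate 2), again without overlap, and resistant cells stood at 1218 ± 122.

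The receptor tyrosine kinase AXL, a known bypass route in cells resistant to EGFR inhibitors, measured 2227, 1636 and 1945 in inhibitor-treated cells, against 425, 622 and 548 in parental cells. It was 3.66-fold higher than in parental cells (1.87 ± 0.14; 1.99 without replicate 2; adjusted p = 1.23e-08), and lower than the 3793 ± 452 of resistant cells (-0.97 ± 0.14; -0.86 without replicate 2; adjusted p = 4.84e-05). Vimentin (VIM), the intermediate filament of mesenchymal cells, was 3269, 3535 and 2853 in inhibitor-treated cells, against 1871, 2274 and 2062 in parental cells. The groups did not overlap, and VIM was higher by 0.64 ± 0.092 (0.57 without replicate 2), and differed from resistant cells by -1.24 ± 0.092 (-1.31 without replicate 2; adjusted p = 7.68e-09). The matrix protein SPARC changed by 1.34 (1.24), tropomyosin TPM1 by 1.22 (1.23), the tight junction gene CLDN11 by 1.02 (1.04), the actin regulator CALD1 by 0.65 (0.50) and the BMP antagonist GREM1 by 0.51 (0.53). BEX1 was the 1 that fell (-0.56 [-0.46]).

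Several genes that were high in resistant cells lay near background in both other groups. The collagen chain COL8A1 measured 96.0, 92.9 and 96.5 in inhibitor-treated cells, against 83.6, 85.8 and 85.3 in parental cells. Its arrays did not overlap but were all near background, the change of 0.16 ± 0.081 (0.18 without replicate 2) was not called (adjusted p = 0.226; 0.00912 in a fit of the 6 arrays alone and 0.0187 with a variance prior without trend), and resistant cells stood at 1442 ± 56.0. The methyltransferase NNMT was at 86.0 ± 2.92 in inhibitor-treated, 960.1 ± 49.6 in resistant and 90.9 ± 1.05 in parental cells. The collagen chain COL1A2 gave 92.9 ± 2.94, 784 ± 58.4 and 91.4 ± 2.92, and EMP3 gave 121 ± 3.75, 1231 ± 31.0 and 134 ± 5.95, in that order of groups. Their 95% intervals of the inhibitor-minus-parental change were -0.24 to 0.082 for NNMT, -0.14 to 0.19 for COL1A2 and -0.33 to 0.045 for EMP3. FN1 (fibronectin) lay at background in all groups.

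Among 10 transcription factors that drive the transition, 4 were higher and 1 lower (3 and 1 without inhibitor replicate 2), beside 7.13% and 7.79% of all genes. TWIST1, a basic helix-loop-helix factor, measured 189, 185 and 183 in inhibitor-treated cells, against 88.9, 88.4 and 93.7 in parental cells. It was clear of the parental arrays, which were at background, and the change was 1.04 ± 0.074 (1.04 without replicate 2; adjusted p = 4.34e-09), with 295 ± 21.8 in resistant cells. TWIST2 changed by 0.34 (0.32) and HMGA2 by 0.25 (0.28). The zinc finger factor SNAI2 gave 504, 588 and 409.7 in inhibitor-treated cells, against 389, 355 and 359 in parental cells. The change of 0.43 ± 0.13 passed with all arrays (adjusted p = 0.0229) and not without inhibitor replicate 2 (0.31, adjusted p = 0.0503), inhibitor replicate 1 (adjusted p = 0.0675), parental replicate 2 (adjusted p = 0.0908) or parental replicate 3 (adjusted p = 0.0813). ZEB1 was at background in all groups and was not called (adjusted p = 0.144). The 1 called lower was TCF4 (-0.16 [-0.19]), which was close to background and was not called without inhibitor replicate 1 or 3 or parental replicate 1 or 2.

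Epithelial genes were called above their parental levels more often than below. Of 40 genes of adhesion, junctions, keratins and epithelial transcription, 16 were higher and 6 lower than in parental cells (15 and 8 without inhibitor replicate 2), with a median change of 0.11. Resistant cells had 2 members above and 33 below those parental arrays, with a median of -1.14. A 95% interval that lay wholly within 1.5-fold of the parental level was found for 17 of the 40 (18 without replicate 2), beside 89.9% of all genes, many of which were dim. E-cadherin (CDH1), the core epithelial adhesion protein, measured 2735, 3101 and 2739 in inhibitor-treated cells, against 1623, 2121 and 2062 in parental cells. Each inhibitor array exceeded each parental array, and the change was 0.57 ± 0.12 (0.51 without replicate 2; adjusted p = 0.00161), with 713 ± 46.7 in resistant cells. The adhesion molecule EPCAM gave 6995, 7662 and 6449 in inhibitor-treated cells, against 6091, 6190.0 and 7834 in parental cells. Those arrays overlapped, the change was 0.076 ± 0.091 with a 95% interval of -0.11 to 0.27 (adjusted p = 0.708; 0.012 without replicate 2), and both groups lay among the brightest hundredth of values (above 5549), where large differences may be flattened.

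The splicing regulator ESRP1 (123 ± 3.37 in inhibitor-treated and 124 ± 10.3 in parental cells) had an interval of -0.13 to 0.12, and the claudin CLDN7 (1782 ± 153 in inhibitor-treated and 1760.5 ± 13.8 in parental cells) one of -0.22 to 0.25. The simple-epithelium keratins were above the parental level, KRT8 by 1.48 (1.34), KRT18 by 1.32 (1.31), KRT7 by 1.15 (1.04) and KRT19 by 0.61 (0.48). KRT8 measured 1870.0, 2419 and 1785 in inhibitor-treated cells, against 670.4, 782 and 710.5 in parental cells. KRT8 and KRT18 were also above parental in resistant cells (0.70 and 0.58), whereas KRT7 and KRT19 were below it there (-0.91 and -1.57). Other members of the list that rose were desmoplakin (DSP) at 0.88 (0.86), plakoglobin (JUP) at 0.76 (0.61) and the desmosomal cadherin DSG2 at 0.62 (0.55).

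The membrane protease cascade was divided. Matriptase (ST14) rose by 0.84 (0.69), while prostasin (PRSS8), the protease that acts with it, measured 1260.3, 777 and 1340.2 in inhibitor-treated cells, against 2392, 2647 and 2886 in parental cells. All inhibitor arrays lay below all parental arrays, with replicate 2 lowest, and the change was -1.27 ± 0.16 (-1.02 without replicate 2; adjusted p = 9.26e-06). The resistant mean was lower again, at 414 ± 11.2. The tight junction genes CLDN3 (-0.94 [-0.69]) and MARVELD3 (-0.62 [-0.49]) and the polarity gene CRB3 (-0.52 [-0.49]) were also below parental.

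**Figure D4:**
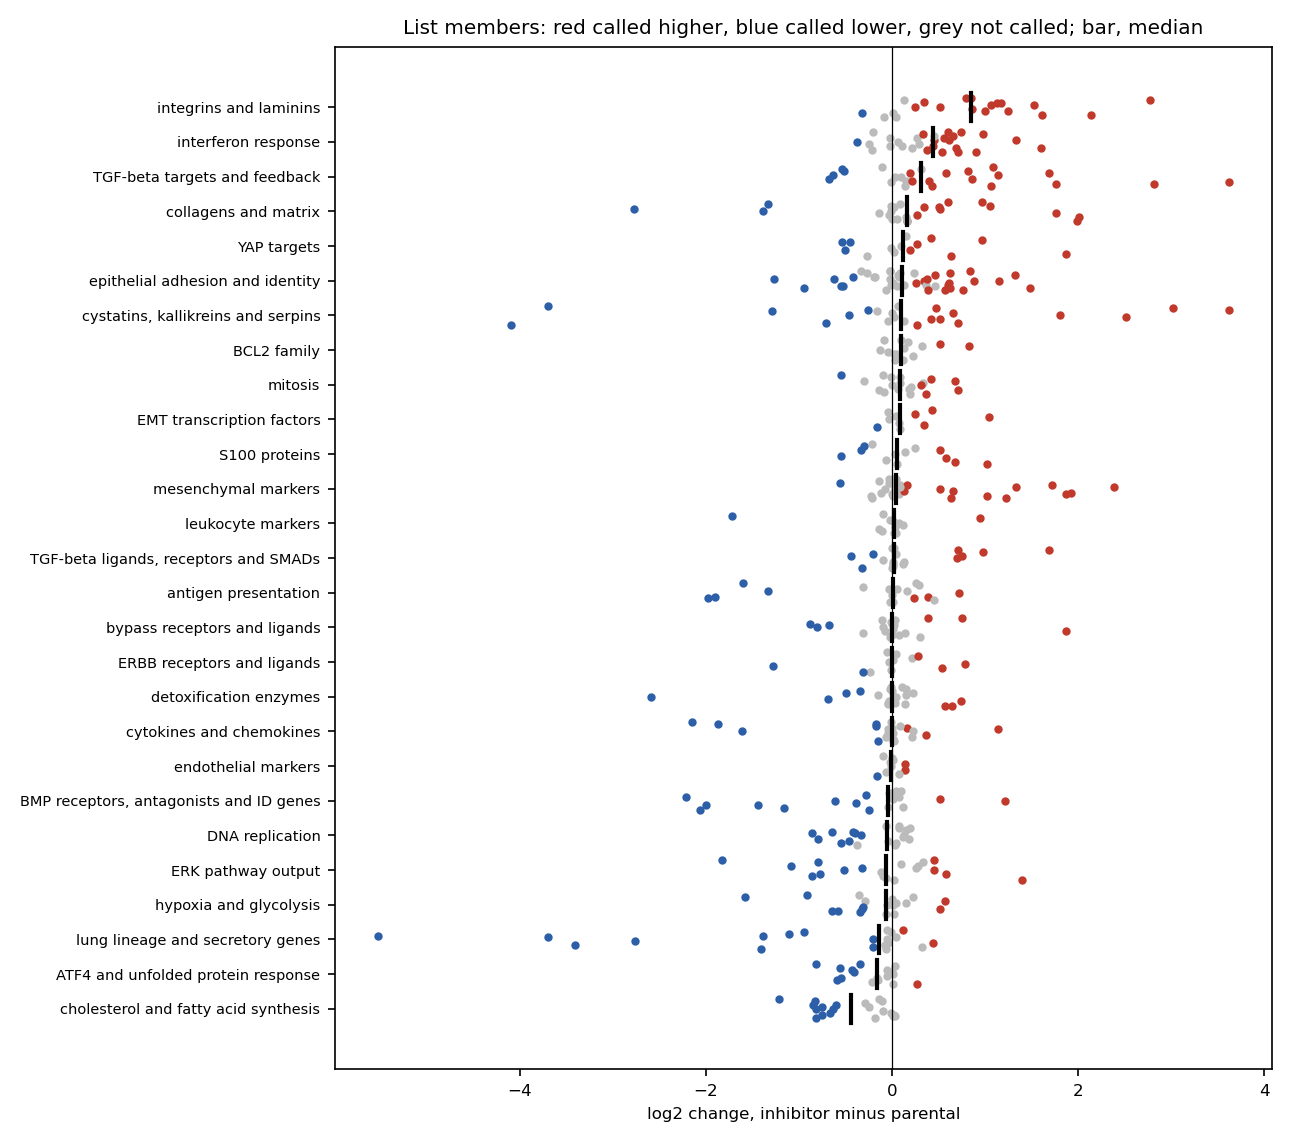
Log2 change of inhibitor-treated minus parental cells (horizontal axis) for the members of each gene list (rows, ordered by median), with red points called higher, blue called lower, grey not called, and a black bar at the median. Integrins and laminins have the highest median (0.85) and cholesterol and fatty acid synthesis the lowest (-0.45).

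Integrins and laminins had the highest median change of the 27 lists. Laminins are basement membrane trimers, and the integrin of ITGA6 and ITGB4 binds them in hemidesmosomes. Of 20 genes, 15 were higher and 1 lower (15 and 1 without inhibitor replicate 2), with a median change of 0.85. Against the same parental arrays, resistant cells had 8 members higher and 5 lower, with a median of 0.19. LAMB3 measured 1758, 2302 and 1660.0 in inhibitor-treated cells, against 236, 303 and 294 in parental cells. The arrays did not overlap, and the change was 2.78 ± 0.14 (6.85-fold; 2.63 without replicate 2; adjusted p = 4.31e-11), with 486 ± 53.8 in resistant cells. LAMA3, an alpha chain, changed by 1.13 ± 0.075 (1.07 without replicate 2).

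ITGB4 measured 486, 1002 and 512 in inhibitor-treated cells, against 130.0, 147 and 152 in parental cells. Replicate 2 stood highest, and the change of 2.14 ± 0.18 became 1.80 without it (adjusted p = 4.97e-08 and 1.25e-13). ITGA6 measured 938, 1309 and 995 in inhibitor-treated cells, against 519, 509 and 508 in parental cells. It also had its highest array in replicate 2, with a change of 1.06 ± 0.13 (0.92 without it). In resistant cells ITGB4 was at 172 ± 3.65 and ITGA6 at 409 ± 42.2, against 512 ± 6.18 for ITGA6 in parental cells. The collagen receptor ITGA2 was 2336 ± 364 in inhibitor-treated, 414 ± 6.97 in resistant and 1027 ± 51.1 in parental cells, a change of 1.18 (1.05) from parental. LAMB1 changed by 1.53 (1.19), LAMA4 by 1.24 (1.29) and LAMA5 by 0.85 (0.91). LAMB2 was the 1 that fell (-0.33 [-0.40]).

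Among 24 collagen and matrix genes, 11 were higher and 3 lower (9 and 3 without inhibitor replicate 2), beside 7.13% and 7.79% of all genes. COL4A5, a basement membrane collagen, changed by 2.01 (1.99), COL7A1, the anchoring fibril collagen, by 1.76 (1.66), the proteoglycan SPOCK1 by 1.99 (2.06), THBS1 by 1.05 (0.88) and COL4A1 by 0.97 (0.94). Beside MGP, COL5A2 (-1.39 [-1.41]) and FBLN1 (-1.34 [-1.20]) fell. Among 22 cystatins, kallikreins and serpins, 10 were higher and 6 lower (11 and 6 without inhibitor replicate 2), beside the same shares of all genes. SERPINB5, also called maspin, measured 916, 928 and 767 in inhibitor-treated cells, against 108, 108 and 106 in parental cells. There was no overlap, and the change was 3.02 ± 0.095 (2.97 without replicate 2). The secreted protease KLK5 was 3565 ± 167 in inhibitor-treated, 617 ± 48.6 in resistant and 1023 ± 81.2 in parental cells, a change of 1.80 (1.77). Of 13 S100 genes, 4 were higher and 3 lower (5 and 3 without inhibitor replicate 2), again beside those shares. Rises were led by S100A16 (1.02 [0.93]) and S100A11 (0.68 [0.65]), and the falls were those of S100A14 (-0.55 [-0.61]), S100P (-0.33 [-0.31]) and S100A9 (-0.31 [-0.28]).

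**Figure D5:**
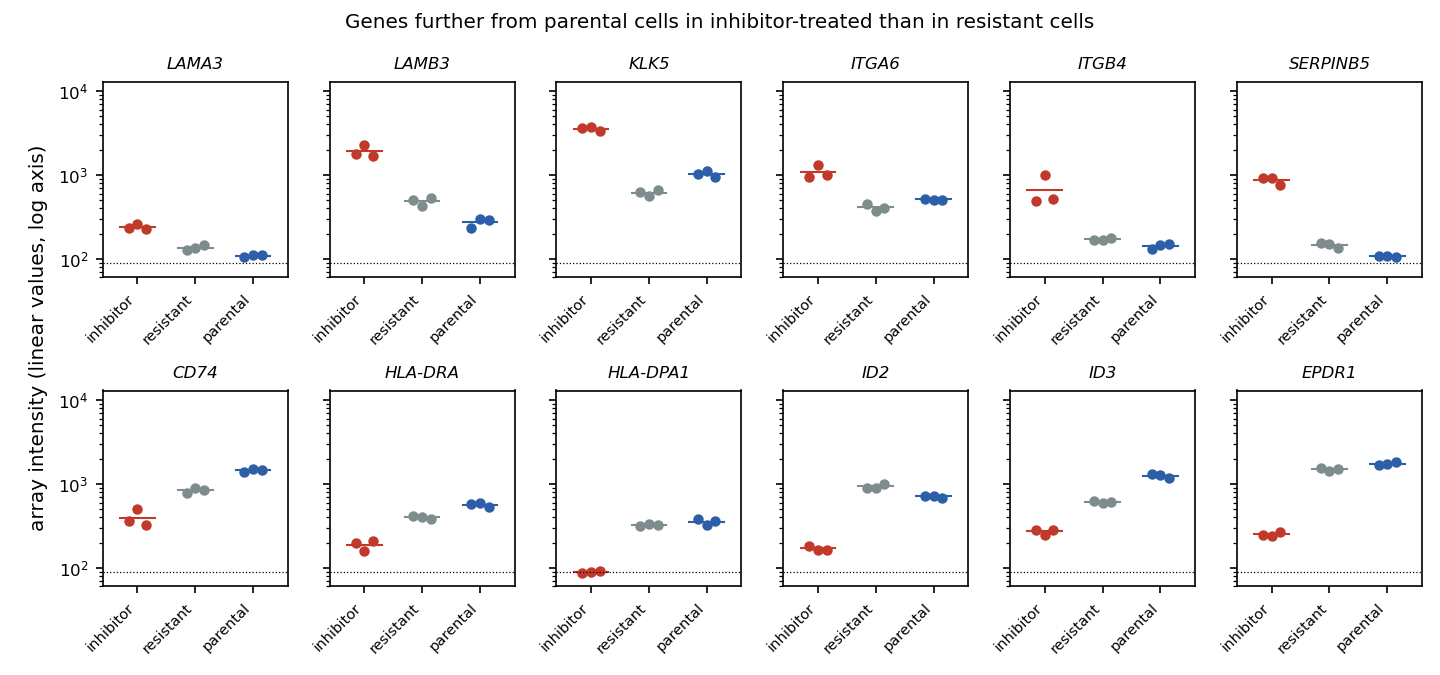
Array intensity on a log axis for 12 genes, with 1 point per array, a bar at the group mean and the dotted line at background, in inhibitor-treated, resistant and parental cells from left to right. The 6 genes of the upper row were higher and the 6 of the lower row were lower than parental, and in each the inhibitor-treated mean lay further from parental than the resistant mean did.

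Genes of the TGF-beta pathway itself were not uniformly low in inhibitor-treated cells, for which presence of SB431542 at harvest is not stated. Of 18 ligands, receptors and SMADs, 5 were higher and 3 lower than in parental cells (5 and 2 without inhibitor replicate 2). Without parental replicate 2 or 3, 1 was lower. Over all genes, 7.13% were higher and 7.79% lower. The type II receptor TGFBR2 measured 1769, 1808 and 1761 in inhibitor-treated cells, against 856, 892 and 959 in parental cells. The groups did not overlap, and the change was 0.98 ± 0.10 (0.97 without replicate 2; adjusted p = 9.47e-07), with 896 ± 24.6 in resistant cells. The latent TGF-beta binding protein LTBP2 rose by 1.69 (1.67), LTBP3 by 0.70 (0.46), SMAD3 by 0.75 (0.66) and the co-receptor ENG by 0.71 (0.49). The ligand TGFB2 was at 272 ± 13.6 in inhibitor-treated and 264 ± 25.8 in parental cells, with a 95% interval of -0.16 to 0.25 for the change. TGFB1 and TGFBR1 lay near background in both groups.

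Of 25 targets and feedback genes of the pathway, 14 were higher and 4 lower (15 and 4 without inhibitor replicate 2), with a median change of 0.31. In resistant cells, set against the same parental arrays, 6 members were higher and 6 lower. ADAM19, COL7A1 and LTBP2, given above, and the cytokine IL11 (1.14 [1.20]) were among those that rose. PMEPA1, a feedback inhibitor of the pathway, measured 4812, 4450.0 and 4658 in inhibitor-treated cells, against 1901, 2209 and 2466 in parental cells. All inhibitor arrays were higher, with a change of 1.09 ± 0.10 (1.12 without replicate 2; adjusted p = 1.74e-07) and 1553 ± 107 in resistant cells. The inhibitory SMAD gene SMAD7 gave 201, 225 and 194 in inhibitor-treated cells, against 156, 158 and 147 in parental cells. It was higher by 0.43 ± 0.085 (0.36 without replicate 2; adjusted p = 0.00136). TGFBI stood at 8029 ± 40.3 in inhibitor-treated and 7841 ± 377 in parental cells, also in that bright range, and was not called (adjusted p = 0.783). The pseudoreceptor BAMBI (-0.64 [-0.58]), NUAK1 (-0.67 [-0.62]), CCN2 (-0.54 [-0.46]) and ANGPTL4 (-0.51 [-0.43]) were the 4 that fell.

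Genes of the BMP branch were more often lower than higher. Of 19 receptors, antagonists and ID genes, 9 were lower and 2 higher (9 and 2 without inhibitor replicate 2). Resistant cells had 2 members above and 8 below those parental arrays. ID3, which encodes a helix-loop-helix protein that binds and blocks other such factors, measured 283, 246 and 286 in inhibitor-treated cells, against 1321, 1294 and 1169.5 in parental cells. Its arrays were separate, and the change was -2.21 ± 0.11 (-2.15 without replicate 2; adjusted p = 3.49e-11), with 614 ± 17.2 in resistant cells. ID2 measured 185, 162 and 165 in inhibitor-treated cells, against 726, 715 and 689 in parental cells. It was 4.17-fold below parental and did not overlap (-2.06 ± 0.11; -2.02 without replicate 2), whereas resistant cells had 937 ± 63.7. The ligand BMP7 changed by -1.997 (-1.97), ID4 by -1.44 (-1.52), and the BMP-induced inhibitor SMAD6 by -1.16 (-0.94).

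ID1 stood apart from the other ID genes. It measured 1509, 1342 and 1696 in inhibitor-treated cells, against 1949, 2051 and 1918 in parental cells, and 410.4 ± 34.0 in resistant cells. The change from parental of -0.39 ± 0.12 passed narrowly (adjusted p = 0.0282; -0.30 and adjusted p = 0.0499 without replicate 2). It was not called without inhibitor replicate 1 (adjusted p = 0.0731) or without parental replicate 1, 2 or 3 (adjusted p = 0.06, 0.114 and 0.0614). FST (follistatin), which binds activins, rose by 1.21 (1.17), and GREM1 was the other gene that rose.

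Interferon response genes were more often higher than lower. They are induced through a complex with STAT2 and IRF9, which binds a DNA element in their promoters, and their products restrict viruses. Of 28 genes, 16 were higher and 1 lower than in parental cells (17 and 0 without inhibitor replicate 2), with a median change of 0.44. Against the same parental arrays, resistant cells had 5 members higher and 11 lower, with a median of -0.20. The 1 lower, IFITM1, was not called without inhibitor replicate 1 or 2, parental replicate 2 or resistant replicate 2. The element was searched for as GAAA, any 2 bases and GAAA again, on both strands, in RefSeq promoter windows of GRCh38.p14, from 250 bases before to 50 after the start of the gene. It was found in 14 of 21 members with a window (66.7%), and in 3.65% of all 27305 windows. Of the 14 with a match 8 were called higher, and of the 7 without one 5 were. Other spacings were not searched for, so a window without a match was not shown to lack the element. The windows of 4 members that rose are shown, 5′ to 3′ on the strand of the gene, with the matches in capitals:
SAMD9, chr7:93117930-93118229, - strand: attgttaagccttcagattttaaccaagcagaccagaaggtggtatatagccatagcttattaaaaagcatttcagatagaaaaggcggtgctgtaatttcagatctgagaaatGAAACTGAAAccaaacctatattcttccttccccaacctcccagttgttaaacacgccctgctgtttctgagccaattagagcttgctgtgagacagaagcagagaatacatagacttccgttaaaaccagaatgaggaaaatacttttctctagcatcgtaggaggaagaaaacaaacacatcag
IFIT1, chr10:89392373-89392672, + strand: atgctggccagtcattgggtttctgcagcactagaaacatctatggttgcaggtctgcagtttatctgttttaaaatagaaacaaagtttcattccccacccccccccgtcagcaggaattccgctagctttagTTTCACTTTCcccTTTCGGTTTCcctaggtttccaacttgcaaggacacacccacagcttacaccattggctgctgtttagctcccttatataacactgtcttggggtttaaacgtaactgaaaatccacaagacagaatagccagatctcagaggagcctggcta
IFIT3, chr10:89327747-89328046, + strand: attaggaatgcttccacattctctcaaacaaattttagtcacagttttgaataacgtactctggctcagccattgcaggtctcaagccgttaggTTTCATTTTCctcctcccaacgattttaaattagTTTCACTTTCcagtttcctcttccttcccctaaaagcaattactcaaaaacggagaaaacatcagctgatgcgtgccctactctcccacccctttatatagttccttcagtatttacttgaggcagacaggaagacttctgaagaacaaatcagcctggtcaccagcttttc
ISG15, chr1:1013247-1013546, + strand: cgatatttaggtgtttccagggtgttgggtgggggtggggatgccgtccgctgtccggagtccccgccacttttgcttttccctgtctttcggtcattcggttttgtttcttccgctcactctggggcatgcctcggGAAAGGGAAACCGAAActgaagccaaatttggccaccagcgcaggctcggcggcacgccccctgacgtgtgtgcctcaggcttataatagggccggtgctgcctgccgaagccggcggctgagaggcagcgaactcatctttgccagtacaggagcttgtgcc

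In these windows the first base of the match lay 136 bases before the start in SAMD9, 116 and 103 in IFIT1, 156 and 122 in IFIT3, and 113 and 107 in ISG15, where the matches overlap. SAMD9, an antiviral factor, measured 673, 597 and 577 in inhibitor-treated cells, against 210.4, 196 and 201 in parental cells. The groups were separate, with a change of 1.60 ± 0.099 (1.62 without replicate 2; adjusted p = 5.97e-10) and 248 ± 13.8 in resistant cells. IFIT1, which binds viral RNA, measured 1646, 1619 and 1199 in inhibitor-treated cells, against 568, 620.3 and 568 in parental cells. It did not overlap either, and the change was 1.33 ± 0.13 (1.26 without replicate 2). IFIT3 changed by 0.97 (1.04), the GTPase MX1 by 0.91 (1.09) and the ubiquitin-like ISG15 by 0.66 (0.74).

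IFI27 was among the 11 members that were lower in resistant than in parental cells. It measured 6022, 5117 and 5559 in inhibitor-treated cells, against 3542, 3586 and 3118 in parental cells, a change of 0.70 ± 0.11 (0.76 without replicate 2; adjusted p = 0.000127), while resistant cells had 679 ± 101. Of the signalling genes, STAT2 rose by 0.37 (0.46) and IRF9 by 0.54 (0.52).

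Several genes of class II antigen presentation were below the parental level. Class II molecules present extracellular peptides and are found in alveolar epithelium as well as in immune cells. Of 17 antigen presentation genes, 4 were lower and 3 higher (4 and 4 without inhibitor replicate 2), beside 7.79% and 7.13% of all genes. The 4 lower were all of class II. The invariant chain CD74 measured 365, 498 and 325 in inhibitor-treated cells, against 1369.6, 1518 and 1480.3 in parental cells. Replicate 2 was the highest inhibitor array and was below all parental arrays, with a change of -1.90 ± 0.14 (-2.08 without it; adjusted p = 5.89e-09). HLA-DRA gave 196, 157 and 209 in inhibitor-treated cells, against 581, 586 and 529.7 in parental cells. Its change was -1.60 ± 0.11 (-1.48 without replicate 2), again without overlap. HLA-DPA1 was at background, 89.6 ± 2.37, in inhibitor-treated cells, against 325 ± 9.72 in resistant and 353 ± 29.4 in parental cells. HLA-DMA, which loads peptide, changed by -1.34 (-1.21). The class II regulator CIITA lay at background in all groups. Of class I, the peptide transporter TAP2 rose by 0.72 (0.74), HLA-C by 0.39 (0.32) and B2M by 0.24 (0.22).

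Among leukocyte genes, the coreceptor CD14 (-1.72 [-1.62]) and the receptor CSF1R (0.95 [1.002]) were the 2 called of 12. Beside them, 7.13% of all genes were called higher and 7.79% lower. CD14 was at 164 ± 18.5 in inhibitor-treated and 536 ± 46.1 in parental cells. Without parental replicate 3 a further member was called lower. The part of other cell types in the class II values was not tested. PTPRC and MS4A1 were at background in both groups. Of 10 endothelial markers, 2 were called higher and 1 lower (1 and 0 without inhibitor replicate 2), beside the same shares of all genes. All these changes were 0.18 or less on the log2 scale and near background.

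Of 22 cytokine and chemokine genes, 6 were lower and 3 higher (5 and 4 without inhibitor replicate 2), beside 7.79% and 7.13% of all genes. The neutrophil chemokine CXCL8 measured 233, 182 and 243 in inhibitor-treated cells, against 1039, 953 and 905 in parental cells. Its arrays did not overlap, and it changed by -2.15 ± 0.13 (-2.02 without replicate 2; adjusted p = 3.52e-10), with 165 ± 24.8 in resistant cells. The membrane chemokine CX3CL1 changed by -1.86 (-1.56) and the monocyte chemokine CCL2 by -1.61 (-1.54). IL11 and IL6 (0.37 [0.44]) were higher.

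Some members of the ERBB family and of the output of the ERK pathway, which EGFR drives, differed from parental cells. Of 12 ERBB receptors and ligands, 3 were higher and 2 lower (3 and 2 without inhibitor replicate 2). Of all genes, 7.13% were higher and 7.79% lower. EGFR itself measured 557, 611 and 534 in inhibitor-treated cells, against 593, 674 and 747 in parental cells. The groups overlapped, and the change of -0.24 ± 0.12 was not called (adjusted p = 0.229; -0.29 and adjusted p = 0.0786 without replicate 2), with a 95% interval of -0.49 to 0.0099. The partner receptor ERBB3 measured 349, 227 and 367 in inhibitor-treated cells, against 779, 713 and 755 in parental cells. Replicate 2 was the lowest, and the change of -1.28 ± 0.14 became -1.06 without it (adjusted p = 1.71e-06 and 9.08e-09). Resistant cells were lower again, at 129 ± 8.85. The ligands NRG1 (0.78 [0.75]), TGFA (0.54 [0.42]) and HBEGF (0.28 [0.30]) were higher. The feedback inhibitor ERRFI1 was called lower (-0.31 [-0.32], adjusted p = 0.0442), a call lost when any single array other than inhibitor replicate 2 was left out, with adjusted p of 0.0599 to 0.115.

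Of 19 ERK output genes, 7 were lower and 4 higher (7 and 5 without inhibitor replicate 2). In resistant cells, set against the same parental arrays, 4 members were higher and 12 lower. The ERK phosphatase DUSP6 measured 2219, 3251 and 2003 in inhibitor-treated cells, against 4434, 4104 and 3975 in parental cells. The groups were separate, with replicate 2 the highest inhibitor array, and the change was -0.77 ± 0.14 (-0.98 without it; adjusted p = 0.000536). Resistant cells were at 676 ± 62.9. The feedback inhibitors SPRY1, SPRY4 and SPRED1 changed by -1.83 (-1.83), -0.86 (-0.91) and -0.80 (-0.82), and the immediate early factor EGR1 by -1.08 (-0.996). PHLDA1 rose by 1.40 (1.18), the AP-1 subunit FOSL1 by 0.58 (0.46) and cyclin D1 (CCND1) by 0.45 (0.48).

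Among 20 bypass receptors and ligands, 3 were higher and 3 lower (3 and 3 without inhibitor replicate 2). Of all genes, 7.13% were higher and 7.79% lower. Besides AXL, its ligand GAS6 rose by 0.75 (0.60) and FGF2 by 0.39 (0.40), while FGFR3 (-0.89 [-0.77]), KIT (-0.80 [-0.90]) and FGF9 (-0.68 [-0.67]) fell. MET measured 1816, 2765 and 1629.7 in inhibitor-treated cells, against 1551, 1734 and 1622 in parental cells. The arrays overlapped, replicate 2 was far above the others, and the change of 0.30 ± 0.16 (adjusted p = 0.265) became 0.074 without it (adjusted p = 0.788).

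Sterol and fatty acid synthesis had the lowest median change of the lists, -0.45. Of 20 genes, 10 were lower and 0 higher (12 and 0 without inhibitor replicate 2). Resistant cells had 0 members above and 10 below those parental arrays. INSIG1, the sterol-regulated retention factor, measured 1072, 1002 and 1096 in inhibitor-treated cells, against 2062, 2538 and 2832 in parental cells. It did not overlap and changed by -1.22 ± 0.12 (-1.18 without replicate 2; adjusted p = 3.73e-07), with 1608 ± 144 in resistant cells. The squalene synthase FDFT1 changed by -0.83 (-0.71) and the squalene epoxidase SQLE by -0.82 (-0.86). Of 19 hypoxia and glycolysis genes, 7 were lower and 2 higher (8 and 4 without inhibitor replicate 2, and 1 higher without inhibitor replicate 1). Beside them, 7.79% of all genes were lower and 7.13% higher. ALDOC changed by -1.57 (-1.28) and NDRG1 by -0.91 (-0.93), while the glucose transporter SLC2A1 rose by 0.57 (0.78).

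Of 17 genes of the ATF4 and unfolded protein responses, 7 were lower and 1 higher (5 and 1 without inhibitor replicate 2), beside 7.79% and 7.13% of all genes. DDIT4 was at -0.81 (-0.89) and XBP1 at -0.55 (-0.61). The 7 became 4 without parental replicate 2, and the 1 higher became 0 without inhibitor replicate 1 or parental replicate 3. Of 21 detoxification enzymes, 3 were higher and 4 lower (3 and 4 without inhibitor replicate 2), beside 7.13% and 7.79% of all genes. The aldehyde dehydrogenase ALDH3A1 measured 197, 184 and 213 in inhibitor-treated cells, against 1136, 1249 and 1182 in parental cells. The arrays were far apart, and the change was -2.59 ± 0.12 (-2.54 without replicate 2; adjusted p = 6.27e-12), with 587 ± 65.9 in resistant cells.

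Cell cycle genes were counted in groups of DNA replication and mitosis, beside 7.13% of all genes higher and 7.79% lower. Of 20 DNA replication genes, 8 were lower and 0 higher (8 and 0 without inhibitor replicate 2), with the helicase subunit MCM6 at -0.86 (-0.75), the polymerase subunit POLE2 at -0.80 (-0.80) and GINS2 at -0.64 (-0.51). Of 19 mitotic genes, 5 were higher and 1 lower (6 and 1 without inhibitor replicate 2), with the kinase AURKB at 0.68 (0.68) and the kinase PLK1, which fell, at -0.55 (-0.51). The 5 higher became 1 without parental replicate 1, 2 without inhibitor replicate 3, and 3 without parental replicate 2 or resistant replicate 1, and the 1 lower became 2 without parental replicate 1. CDK1 was not matched to a row.

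Among 14 YAP targets, 6 were higher and 3 lower (4 and 3 without inhibitor replicate 2), beside 7.13% and 7.79% of all genes. Tissue factor (F3) was at 0.97 (0.96) and CCN1 at 0.63 (0.58). The 3 that fell were CCN2, given above, ANKRD1 (-0.51 [-0.52]) and FJX1 (-0.46 [-0.46]). Among 15 BCL2 family genes, 2 were higher and 0 lower (4 and 0 without inhibitor replicate 2), beside 7.13% and 7.79% of all genes. The antiapoptotic gene BCL2L1 measured 2118, 3658 and 1844 in inhibitor-treated cells, against 1199, 1486 and 1446 in parental cells. The groups did not overlap and replicate 2 was the highest array, with a change of 0.82 ± 0.18 that became 0.53 without it (adjusted p = 0.00278 and 0.00121). BMF, a proapoptotic member, rose by 0.52 (0.46).

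Inhibitor replicate 2 deviated most in genes outside the lists. ZNF735 measured 183, 758 and 166 in inhibitor-treated cells, against 171, 127 and 144 in parental cells, and the change of 0.96 ± 0.35 was not called (adjusted p = 0.0824; 0.25 without replicate 2). It was called without inhibitor replicate 1 (adjusted p = 0.0226) or 3 (adjusted p = 0.0116). The row of the ribosomal protein pseudogene RPL32P11 gave 219, 815 and 231 in inhibitor-treated cells, against 224, 159.8 and 149 in parental cells. The change of 0.98 (adjusted p = 0.0413) became 0.36 without replicate 2 (adjusted p = 0.0418). The call was lost in 7 of 16 alternatives, among them parental replicate 2 or 3 left out (adjusted p = 0.133 and 0.169) and any single resistant array left out (0.0598 to 0.0647). ZNF91 changed by 0.81 ± 0.27 (adjusted p = 0.048) and was not called without inhibitor replicate 2 (0.31, adjusted p = 0.0971). Its call was lost in 14 of 16 alternatives, including each single parental or resistant array left out (adjusted p = 0.0591 to 0.148). ZNF728, MIR574 and RPL7P59 were not called, with changes of 0.74 (0.14), 0.39 (-0.16) and 0.47 (-0.048), though ZNF728 was called without inhibitor replicate 1 (adjusted p = 0.0287) or 3 (adjusted p = 0.0172). Beyond ZNF91, the largest changes among calls lost without inhibitor replicate 2 were those of HMGN2P25 (0.82 [0.57]), LOC642076 (0.80 [0.50]) and LOC645231 (0.76 [0.38]). Each of these calls was also lost without parental replicate 2 or 3.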

How the data were processed

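Total RNA of HCC4006 cells was labelled with biotin using the Ambion MessageAmp kit for Illumina arrays, per the labels' protocols. The authors deposited 1 linear intensity per row and array. The sorted values of the 9 arrays differed by at most 0.0178 on the log2 scale from their mean, so the deposited intensity values had been quantile-normalized. None was below 72.7, so the values had a floor, and whether background had been subtracted is not stated. Array software and probe summarisation: not given in the sources used here. Of 34687 rows, 3270 with just a UniGene identifier were dropped. RefSeq's gene table for GRCh38.p14 supplied current names: 17757 rows matched a current symbol, 2669 a gene number and 3303 an older symbol, and 7688 kept their name. Where several rows named a gene (728 genes), the row with the highest mean was used. Promoter windows are from RefSeq, GRCh38.p14.

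Log2 intensities were fitted in limma 3.58.1 (R 4.3.3) using all 9 arrays and a mean for each group. The variance prior followed intensity (eBayes with trend), and p-values were Benjamini-Hochberg adjusted across 30672 genes. Values are intensities per array or mean ± SD (n = 3), and changes are log2 differences of group means ± SE. Scaling by cyclic loess was among the alternatives. Background was the 95th percentile of 377 olfactory receptor rows. The number of arrays limits the precision. The comparison, the 27 gene lists and the genes taken by name were chosen with earlier results of these data known, so lists are described by counts and medians without a test. The lists are those drawn by row in the plot of list members. By rule, genes are named if they are among the 12 strongest rises or 12 strongest falls of called genes without overlap and above background, up to 4 called members per list, a panel of 25 genes, the 6 genes in which inhibitor replicate 2 deviated most, and the 4 largest changes whose call was lost without it. Members outside this rule were named afterwards, with their values in view, where a count of few genes needed them. Some genes that the rule takes are not reported here. Comparisons with resistant cells come from the same fit and share arrays with the main one, so their values are set side by side only. Figures were drawn with matplotlib 3.10.9.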

Additional observations from a re-analysis of the deposited data

How the results depend on the processing

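All limits here are those of 3 arrays a group and of signal near background, where changes are understated. Alternatives were a fit of the 6 arrays alone, array weights, cyclic loess, dim genes left out, the mean of a gene's rows, a replicate block, a variance prior without trend and each of the 9 arrays left out. Over single arrays left out, genes called higher numbered 1649 to 2467, lower 1958 to 2508, 171 to 204 and 224 to 256 at 2-fold, and 26973 to 28056 had an interval within 1.5-fold. With dim genes left out 13101 had such an interval, as fewer genes were tested. Samples with the same number did not deviate together (correlations of -0.139, -0.225 and -0.178 between inhibitor and parental deviations), and with a replicate block 1997 genes were higher and 2214 lower. List counts moved as follows, and the cause was not tested. In the 6 arrays alone TGF-beta ligands had 1 lower, ERBB 1 lower, interferon 0 lower, mitosis 2 higher and ATF4 4 lower. With the replicate block ERBB had 1 lower and interferon 0 lower. Bypass had 5 lower, leukocyte markers 2 lower and endothelial markers 0 higher with dim genes left out, mitosis had 3 higher and endothelial markers 1 higher without trend, and cytokines had 5 higher with array weights. Single arrays left out gave ranges of 0 to 1 lower for EMT factors and interferon, 1 to 3 for TGF-beta ligands, 1 to 2 for ERBB, mitosis and leukocyte markers, 4 to 7 for ATF4 and 0 to 1 for endothelial markers, and of 1 to 3 higher for lung genes, 1 to 6 for mitosis, 1 to 4 for hypoxia, 0 to 1 for ATF4, 2 to 4 for BCL2 and 0 to 2 for endothelial markers. Signs turned for ESRP1 (0.0056, 0.0049, 0.0036 and 0.0489 without inhibitor replicate 1, inhibitor replicate 2, parental replicate 2 and parental replicate 3; lowest -0.0709), for MIR574 (-0.1564 to 0.7265) and RPL7P59 (-0.0480 to 0.7627), lowest without inhibitor replicate 2, and for TGFB2 (-0.0262 to 0.1148) and TGFBI (-0.0053 to 0.0560), lowest without parental replicate 1. None of these was called. Of 2172 values of named genes under the alternatives, 2072 kept direction and call, 82 lost the call and 10 gained it.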
